A study of Bos taurus with 12 samples.

Results

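Junction genes, which encode the proteins that seal, couple and hold together neighbouring cells, were described in bovine endometrium biopsied in the cycle before embryo transfer. The list holds 10 genes: the gap junction gene GJA1, the claudin gene CLDN5, and 8 genes of epithelial junctions (CLDN1, CLDN3, CLDN4, CLDN7, CLDN10, CDH1, OCLN and TJP1). All probe sets were taken to which the platform annotation gives a single symbol of the list. These were 13 probe sets of 9 genes, and OCLN is not analysed here. A gene counted as measured if it exceeded 4 on the log2 scale in 3 or more of the 12 arrays, which held for 8 of the 10 genes (10 of the 13 probe sets), among 6781 genes measured in the series. At the edge of this rule, CLDN5 passed on 5 arrays, all of day 7, and TJP1 did not pass, with values of 3.16 to 3.29 and 1.58 to 1.62 on its 2 probe sets.

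The tissue came from Simmental heifers, was hybridised to Affymetrix bovine 3' expression arrays, and falls into 4 groups of 3 arrays each. CDd14 and NPd14 were taken at day 14 of the oestrous cycle, and CDd7 and NPd7 at day 7. CD heifers later delivered a calf after the transfer, and NP heifers had no pregnancy after it. Each array holds RNA of a pool of heifers, so a value is an average over animals whose number and ages the labels do not state, and no treatment is named for any group. All levels below are the authors' deposited GCRMA values on the log2 scale, in the order of pools 1, 2 and 3.

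Tight junctions ring the apical side of epithelial cells and control what passes between them. Claudins form their strands, occludin joins these strands, and TJP1 (ZO-1) ties them to the actin cytoskeleton. Below them, the adherens junction holds cells together through cadherins, in epithelia mainly E-cadherin, the product of CDH1. Gap junctions are channels made of connexins that let ions and small metabolites pass directly from cell to cell, and GJA1 encodes the connexin that is most widely expressed and that is known from uterine stroma and smooth muscle. In endometrium, the luminal and glandular epithelium carries the tight junctions that separate the uterine fluid, in which the embryo lies, from the tissue.

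The arrays were alike in scale, with medians of 4.89 to 5.06 on the log2 scale, and correlated with r of 0.921 to 0.988 within groups and 0.862 to 0.981 between groups. The difference between 3' and 5' control probe sets of tissue genes averaged 1.44 ± 0.08 in CDd14, 1.70 ± 0.13 in NPd14, 1.20 ± 0.15 in CDd7 and 1.42 ± 0.14 in NPd7 (log2, SD, n = 3 each). It was thus lowest in CDd7, and the same difference of added bacterial transcripts was also lowest there (4.74 ± 0.07, against 5.06 ± 0.15 in NPd7). The part of these differences in the results was not tested. Of the markers used to check the tissue, 15 of 16 epithelial genes with a probe set were measured, 11 of 16 stromal fibroblast genes and 8 white blood cell genes. None of the 14 endothelial markers with a probe set was measured, the highest single value being 3.59 for EMCN.

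GJA1 was lower in CD than in NP by a like amount at both days, and its day effect was near 0 in either outcome. At day 14 its levels were 6.41, 6.45 and 6.18 in CDd14, against 9.64, 9.30 and 10.10 in NPd14. At day 7 they were 4.93, 6.83 and 7.32 in CDd7, against 9.32, 9.33 and 10.39 in NPd7. Every CD pool lay below every NP pool of the same day, and in fact below the NP pools of both days. A second GJA1 probe set lay at 1.63 to 1.68 on all 12 arrays and did not pass the filter. The GJA1 results thus rest on 1 probe set. At day 7 the fold change was −3.32 ± 0.54 on the log2 scale (SE; 95% interval −4.52 to −2.12), a level 9.98-fold lower in CDd7 than in NPd7, and it passed the threshold of an adjusted p under 0.05 (limma, adjusted p = 0.0239). GJA1 was 1 of 2 members called in this comparison, where 3.48% of all genes were called. At day 14 the fold change was of the same size, −3.33 ± 0.54 (SE; 95% interval −4.53 to −2.13), but it did not pass (limma, adjusted p = 0.123). In that comparison, 0.0147% of all genes passed.

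The day effect of GJA1 was −0.02 in CD and 0.00 in NP on the log2 scale, and the difference between these was −0.01 with a 95% interval of −1.71 to 1.68 (limma, adjusted p = 0.993). The interval leaves room for a difference of more than 1 on the log2 scale in either direction. The 3 CDd7 pools spread widely, with an SD of 1.26 against 0.15 in CDd14. The day 7 call was lost without CDd7 pool 2, NPd7 pool 1 or NPd7 pool 3 (limma, adjusted p = 0.0895, 0.0974 and 0.111), and with the day 7 arrays fitted alone (limma, adjusted p = 0.0926). At day 14 GJA1 passed without CDd7 pool 1, the lowest pool (limma, adjusted p = 0.014), and in no other fit that left out 1 array.

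Stromal markers were also lower in CDd7 than in NPd7, and their fold changes were smaller at day 14. In CDd7 minus NPd7, all 11 measured stromal fibroblast markers had a negative fold change, 6 of them passed (2.02% of all genes were called lower), and their median was −2.81, against −0.01 over all genes. FAP, 1 of the 11, passed the filter only through NP arrays, where it is high (4.10 in NPd14 pool 2, 4.20 and 5.46 in NPd7 pools 1 and 3). Its negative sign thus follows from the filter, and it was not among the 6 called. The 6 included PCOLCE, which helps process collagen, COL3A1, a fibrillar collagen, and LUM, a proteoglycan that binds collagen, at −2.81, −2.95 and −3.05 on the log2 scale (limma, adjusted p = 0.0287, 0.0352 and 0.0368). Of 8 smooth muscle markers with a probe set, 7 did not pass the filter, with no value above 3.35. The single one measured, MYLK, a kinase of smooth muscle contraction, fell by 3.23 (limma, adjusted p = 0.0368). The calls of these 4 genes held in 8 (PCOLCE), 6 (COL3A1), 5 (LUM) and 6 (MYLK) of the 12 fits that left out 1 array. All 4 were lost without CDd7 pool 2, NPd7 pool 1 or NPd7 pool 3, some also without a CDd14 pool, CDd7 pool 1 or NPd14 pool 1, and all with no filter (limma, adjusted p = 0.0554 to 0.0689) and with the day 7 arrays alone (0.0856 to 0.0938). White blood cell markers were also lower in part. Of 8 measured in CDd7 minus NPd7, 7 had a negative fold change, and the median was −0.93. CD8A and LCK, genes of T cells, fell by 1.69 and 1.29 (limma, adjusted p = 0.0474 and 0.0466). They were called in 4 and 3 of 12 fits that left out 1 array. Both calls were lost with no filter (limma, adjusted p = 0.0856 and 0.0803) and with the day 7 arrays alone (0.1 and 0.109). That for LCK was also lost with its probe sets averaged (limma, adjusted p = 0.0632). In CDd14 minus NPd14, MYLK had −1.80 ± 0.65 (SE), with 4.57, 4.56 and 6.57 in CDd14, against 6.53, 8.19 and 6.37 in NPd14, and did not pass (limma, adjusted p = 0.576; unadjusted p = 0.0194). The median of the white blood cell markers there was −0.05, and 0 of 8 passed by limma or had an unadjusted p under 0.05. In the same comparison, 0 of the 11 stromal markers passed by limma, 0 had an unadjusted p under 0.05, and their fold changes ran between −0.97 and 0.48 with a median of −0.61. The GJA1 fold change of −3.33 there lay outside that range. The summed linear level of the stromal markers was 4140 to 7940 in CDd14, 5880 to 8680 in NPd14, 3020 to 5920 in CDd7 and 8980 to 22500 in NPd7. The ranges of the day 14 groups overlapped, and those of the day 7 groups did not. In a biopsy, fewer cells of a type and less RNA per cell cannot be told apart. The part of the stromal markers, MYLK and the white blood cell markers in the GJA1 results of either day was not tested.

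**Figure D1:**
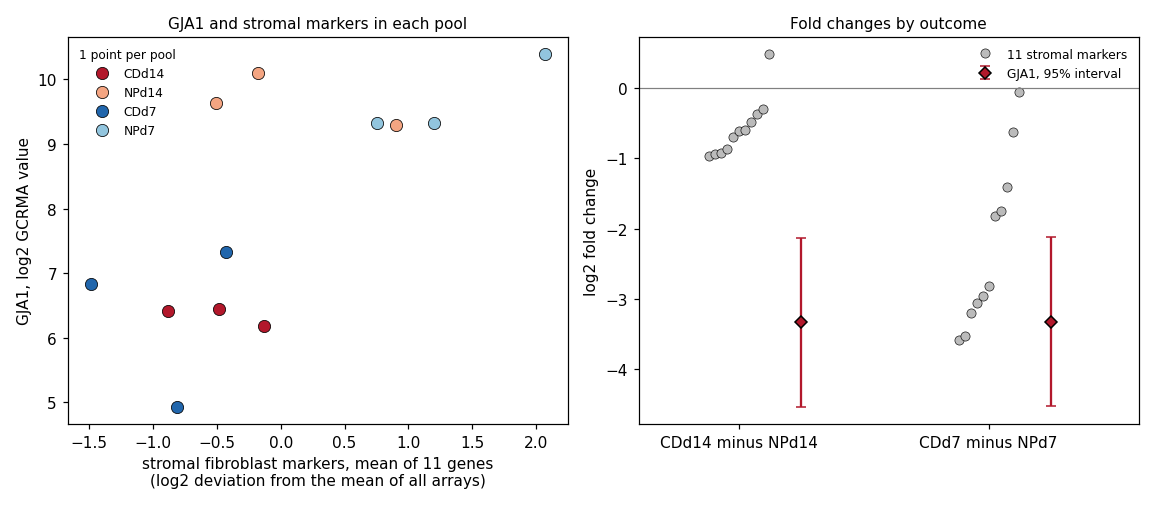
Left, the GJA1 level of each pool (log2 GCRMA value) against the mean deviation of 11 stromal fibroblast markers from their mean over all arrays (log2). Right, the log2 fold changes of the 11 markers (grey) and of GJA1 (red, with its 95% interval) at day 14 and at day 7. The 6 CD pools lie below the 6 NP pools in GJA1 at both days, while the marker fold changes reach down to −0.97 at day 14 and −3.58 at day 7.

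CLDN5 was the member with the largest difference between days in CD. Its protein is best known as the main claudin of blood vessel endothelium. Its levels were 2.05, 2.03 and 1.66 in CDd14, against 7.21, 5.78 and 6.17 in CDd7. No CDd14 pool came near a CDd7 pool, and all 3 CDd14 values lay below the filter level of 4. CLDN5 fell by 4.48 ± 0.48 on the log2 scale in CDd14 relative to CDd7 (SE; 95% interval −5.54 to −3.41), which is 22.2-fold lower (limma, adjusted p = 0.00176). In these GCRMA values, dim probe sets lay close to a floor whose level differed between probe sets, as for the 2 of TJP1. The size of this fold change depends on the floor of the CLDN5 probe set. In this comparison 24.1% of all genes were called, and the call for CLDN5 held in all 12 fits that left out 1 array. CLDN5 passed the filter only through day 7 arrays, where it is high. The negative sign of its day effects thus follows from the filter, and the call adds no independent support for it.

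In NP the CLDN5 levels were 2.04, 3.29 and 2.07 in NPd14, against 3.21, 4.75 and 4.08 in NPd7. NPd14 and NPd7 overlapped, NPd14 pool 2 being just above NPd7 pool 1. The fold change of −1.55 ± 0.48 (SE) did not pass (limma, adjusted p = 0.175). The contrast of the CD and NP day effects was −2.92 ± 0.68 (SE; 95% interval −4.43 to −1.41), and it did not pass over all probe sets (limma, adjusted p = 0.23). Since all 6 day 14 values lie under the filter level, both day effects end near the floor, and the size and interval of their difference depend on it too. In that test 0 of the 8 members passed, as did 0% of all genes, while 1900 probe sets had an unadjusted p under 0.05.

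At day 7, every CDd7 pool of CLDN5 was above every NPd7 pool. The fold change was 2.37 ± 0.48 on the log2 scale (SE; 95% interval 1.31 to 3.44), or 5.18-fold higher in CDd7 (limma, adjusted p = 0.0368). This call held in 4 of the 12 fits that left out 1 array, with fold changes of 1.96 to 2.74 and adjusted p of 0.0195 to 0.144 (limma). It was lost without any of the CDd14 pools, CDd7 pool 1 or 2, NPd14 pool 1, or NPd7 pool 1 or 3, with the day 7 arrays alone (adjusted p = 0.0938) and with no filter on low values (adjusted p = 0.069). At day 14 all pools of both groups were under the filter level, and the fold change of −0.55 did not pass (limma, adjusted p = 0.873). CLDN5 and GJA1 therefore had opposite signs in the day 7 comparison, and in CDd14 minus CDd7 GJA1 had −0.02 beside −4.48 for CLDN5.

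The name of CLDN5 as an endothelial gene could not be borne out by other markers. Of 19 endothelial markers listed, 14 have a probe set and 0 passed the filter, their means over the 12 arrays lying between 1.97 and 3.26. The CLDN5 level in CDd7 was thus not accompanied by any measured endothelial marker. The gene is called here by its name alone.

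**Figure D2:**
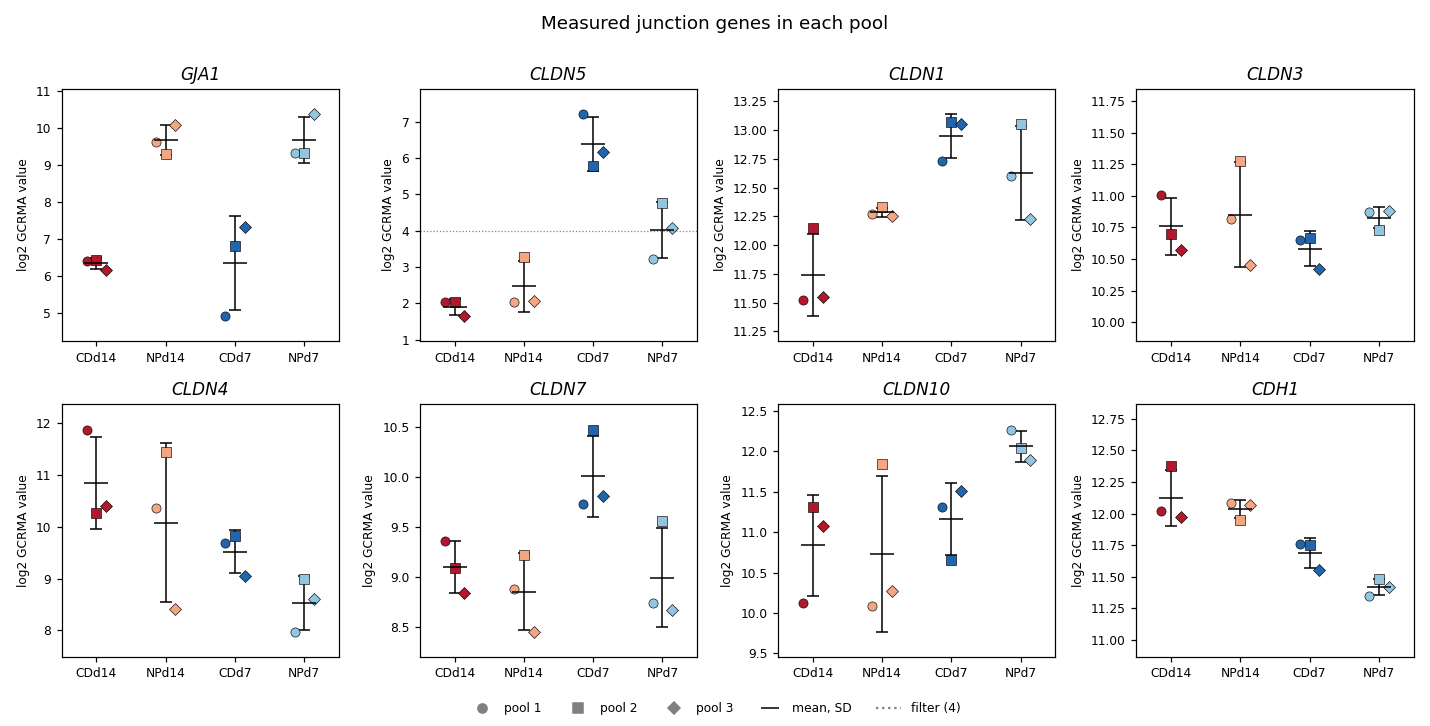
Level of the 8 measured junction genes in each pool (log2 GCRMA value), with the group mean and SD (n = 3 pools) and, where it falls in a panel, the filter level of 4 as a dotted line. GJA1 lies lower in both CD groups than in both NP groups, and CLDN5 lies highest in CDd7 and near the floor in CDd14.

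CLDN1, a barrier-forming claudin needed for the barrier of the skin in mice, was lower at day 14 than at day 7 in CD. Its levels were 11.52, 12.15 and 11.55 in CDd14, against 12.73, 13.07 and 13.05 in CDd7. The groups did not overlap, and CLDN1 fell by 1.21 ± 0.22 on the log2 scale (SE; 95% interval −1.71 to −0.71), or 2.31-fold (limma, adjusted p = 0.00668). Its second probe set fell by 1.93 (limma, adjusted p = 0.00595), so both probe sets agree in direction, and the call held in all 12 fits that left out 1 array. In NP the levels were 12.27, 12.33 and 12.25 in NPd14, against 12.60, 13.05 and 12.23 in NPd7. NPd7 pool 3 was lower than every NPd14 pool, so the groups overlapped, and the fold change of −0.34 did not pass (limma, adjusted p = 0.475).

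Between outcomes CLDN1 did not pass at either day. At day 14 every CDd14 pool was below every NPd14 pool, with a fold change of −0.54 ± 0.22 (SE; limma, adjusted p = 0.631). At day 7 the fold change was 0.32 ± 0.22 (SE; limma, adjusted p = 0.352) and the groups overlapped. The difference of the day effects was −0.86 ± 0.32 (SE; limma, adjusted p = 0.309).

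CLDN7, a claudin of epithelial lateral membranes, had its highest values in CDd7. Its levels were 9.36, 9.09 and 8.84 in CDd14, 8.88, 9.22 and 8.45 in NPd14, 9.73, 10.47 and 9.81 in CDd7, and 8.74, 9.56 and 8.67 in NPd7. All 3 CDd7 pools were above all pools of the other groups. The fold changes missed the threshold at 1.01 ± 0.30 in CDd7 minus NPd7 and at −0.90 ± 0.30 in CDd14 minus CDd7 (SE; limma, adjusted p = 0.0717 and 0.0519). Their 95% intervals were 0.35 to 1.68 and −1.57 to −0.24. CDd7 minus NPd7 passed without NPd7 pool 2 (limma, adjusted p = 0.0265), and CDd14 minus CDd7 passed without NPd14 pool 2, NPd14 pool 3 or NPd7 pool 2 (0.0321 to 0.0468), with the stricter filter (0.0495) and with trended and robust moderation (0.0487).

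CLDN3 and CLDN4, which bind the enterotoxin of Clostridium perfringens and lie next to each other on the RefSeq assembly ARS-UCD2.0, behaved unlike each other in spread. CLDN3 varied little, with 11.01, 10.70 and 10.57 in CDd14, 10.82, 11.28 and 10.45 in NPd14, 10.65, 10.67 and 10.42 in CDd7, and 10.87, 10.73 and 10.88 in NPd7. Its largest pairwise fold change was −0.25 ± 0.20 on the log2 scale, at day 7 (SE; limma, adjusted p = 0.419). CLDN4 ranged far more, with 11.87, 10.27 and 10.39 in CDd14, 10.36, 11.44 and 8.42 in NPd14, 9.68, 9.83 and 9.05 in CDd7, and 7.98, 9.00 and 8.60 in NPd7. The day 14 means of CLDN4 were higher than the day 7 means, by 1.33 ± 0.69 in CD and 1.54 ± 0.69 in NP (SE), and neither passed (limma, adjusted p = 0.183 and 0.305). The 3 NPd14 pools alone had an SD of 1.53, with pool 3 below all CDd7 pools and below NPd7 pools 2 and 3.

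CLDN10, whose isoforms form channels for ions rather than a seal, was highest in NPd7. Its levels were 10.13, 11.31 and 11.08 in CDd14, 10.09, 11.84 and 10.27 in NPd14, 11.31, 10.66 and 11.51 in CDd7, and 12.27, 12.04 and 11.89 in NPd7. All 3 NPd7 pools were above all pools of the other groups, NPd14 pool 2 being the nearest. The fold change was −1.33 ± 0.46 in NPd14 minus NPd7 and −0.91 ± 0.46 in CDd7 minus NPd7 (SE; limma, adjusted p = 0.21 and 0.209), so neither passed. Without NPd14 pool 2 the day effect in NP passed (limma, adjusted p = 0.0459). All 5 measured ciliated cell markers had a negative fold change in NPd14 minus NPd7, with groups that did not overlap and a median of −2.19, although 0 of 5 passed by limma (5 at an unadjusted p under 0.05). The groups did not overlap for 22.6% of all genes there. Of 11 stromal fibroblast markers, 8 also had a negative fold change, with a median of −1.63, and 0 passed by limma. Over the 12 arrays, CLDN10 correlated with the mean of the ciliated markers at r = 0.54, of the stromal markers at 0.72 and with the smooth muscle marker MYLK at 0.70. The part of these markers in the CLDN10 values was not tested.

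CDH1 was higher at day 14 than at day 7, by small amounts with little spread between pools. Its levels were 12.02, 12.38 and 11.97 in CDd14, against 11.76, 11.75 and 11.55 in CDd7, and 12.08, 11.95 and 12.07 in NPd14, against 11.35, 11.48 and 11.42 in NPd7. In both outcomes the day 14 pools were all above the day 7 pools. The groups did not overlap for 44.9% of all genes between days in CD and for 22.6% in NP. In CD the gene rose by 0.44 ± 0.13 on the log2 scale (SE; 95% interval 0.15 to 0.72), or 1.35-fold (limma, adjusted p = 0.0342). In NP the fold change was 0.62 ± 0.13 (SE; 95% interval 0.34 to 0.91) and did not pass (limma, adjusted p = 0.0803).

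The second, dim probe set of CDH1, at 4.63 to 5.76 on the log2 scale, went the other way in CD, with −0.48 (limma, adjusted p = 0.0603). Averaging the probe sets gave −0.02, so the CDH1 call rests on the brighter probe set. The call held in 6 of the 12 fits that left out 1 array and was lost without CDd14 pool 1 or 2, any of the CDd7 pools, or NPd14 pool 1 (limma, adjusted p = 0.0506 to 0.103), and with the CD arrays alone (0.0953).

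Across the 6 measured epithelial members, few comparisons passed, and the members did not move as a block. In CDd14 minus CDd7, 1 rose (CDH1), 1 fell (CLDN1) and 4 did not pass, with a median of −0.07 beside 0.00 over all genes. Of all genes, 9.87% were higher and 14.2% lower there. In CDd7 minus NPd7, 0 of 6 passed by limma, with a median of 0.30 beside −0.01, and CLDN7 alone had an unadjusted p under 0.05. The groups did not overlap for 5 of the 6 at day 7, and this held for 35.3% of all genes. In CDd14 minus NPd14, 0 of 6 passed by limma, with a median of 0.10 beside 0.03 over all genes, and CLDN1 was the 1 gene with an unadjusted p under 0.05 and with groups that did not overlap, against 10.6% of all genes. In NPd14 minus NPd7, 0 of 6 passed by limma (3 at an unadjusted p under 0.05), with 0.133% of all genes called and a median of −0.06, the same as over all genes. Pools of the same number deviated together in NP (r over all probe sets of 0.16, 0.62 and 0.51 for pools 1, 2 and 3), and with the pool number as a block 21 probe sets passed there, against 44 without it.

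The epithelial markers as a list had calls in CDd14 minus CDd7 only, all in the higher direction. Their summed linear level was 98700 to 106000 in CDd14, 94400 to 108000 in NPd14, 83100 to 92100 in CDd7 and 95300 to 96100 in NPd7. In CDd14 minus CDd7, 4 of the 15 measured passed, all 4 higher. Of all genes, 24.1% passed there in either direction and 9.87% in the higher direction. CDH16 was among the 4, but it passed the filter only through day 14 arrays, where it is high, and its day 7 values lay near the floor. In the other comparisons 0 of 15 passed by limma (6 at day 7, 2 at day 14 and 2 between days in NP at an unadjusted p under 0.05). Among the genes called in CDd14 minus CDd7, PRSS8, a membrane protease of epithelia, rose by 0.98 and AGR2, a folding protein of secretory cells, by 0.97 (limma, adjusted p = 0.0111 and 0.0152). The call for AGR2 was lost without CDd14 pool 2 and with the CD arrays alone (limma, adjusted p = 0.0511 and 0.0604). CLDN1 fell by 1.21 in the same comparison. The part of the epithelial markers in the member results was not tested.

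**Figure D3:**
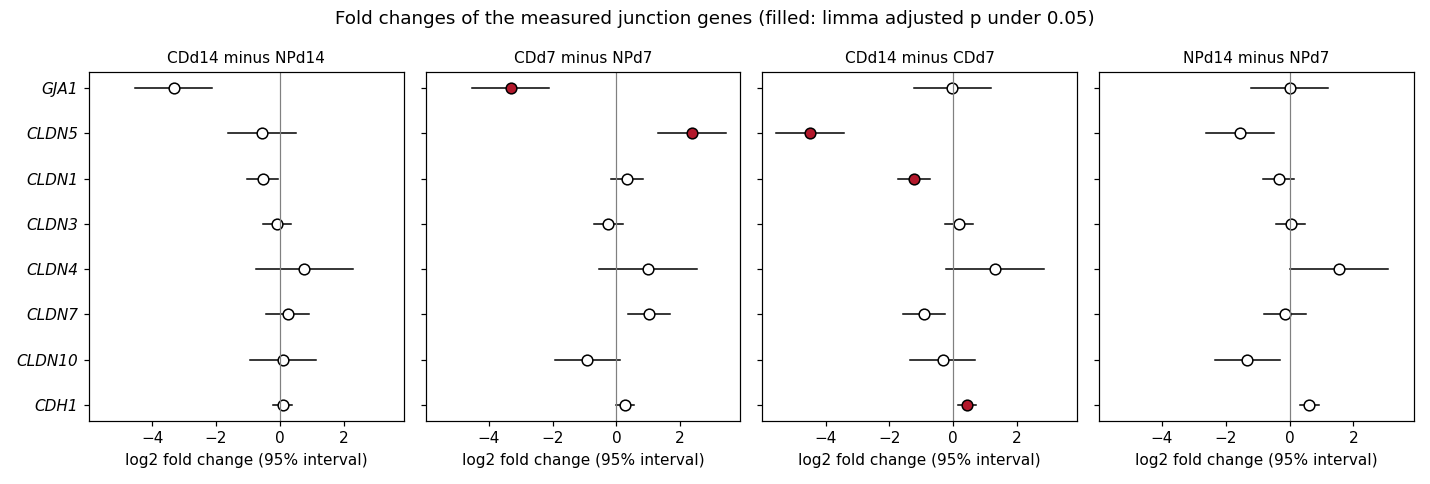
Log2 fold change with its 95% interval for the 8 measured junction genes in the 4 pairwise comparisons, filled where the limma adjusted p is under 0.05. GJA1 has nearly the same fold change at both days (−3.33 at day 14 and −3.32 at day 7) but is filled at day 7, and CLDN5, CLDN1 and CDH1 are filled in CDd14 minus CDd7.

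Other genes of the same structures showed where the members stand in their families. Of 20 further claudins and strand proteins, 13 have a probe set and 6 were measured. JAM3, a junctional adhesion molecule of the immunoglobulin family, passed at day 7, with 6.10, 7.90 and 6.56 in CDd7, against 4.58, 4.79 and 4.57 in NPd7. It rose by 2.21 ± 0.39 in CDd7 (SE; limma, adjusted p = 0.0287), but not without CDd14 pool 3, CDd7 pool 2, NPd7 pool 1 or NPd7 pool 3 (limma, adjusted p = 0.053 to 0.132), with no filter (0.0549) or with the day 7 arrays alone (0.0938). In CD, JAM3 fell by 1.98 ± 0.39 at day 14 (SE; limma, adjusted p = 0.00809), with 4.77, 5.17 and 4.71 in CDd14. Its highest values thus lay in CDd7, as did those of CLDN5 and CLDN7. The other 5 measured genes of the list did not pass in any comparison.

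Of 18 other connexins and pannexins, 3 were measured, and they differed among themselves. GJB5, a connexin of stratified and trophoblast epithelia in mice, had 5.41, 4.96 and 4.90 in CDd14, against 8.28, 8.06 and 7.80 in CDd7, and fell by 2.95 ± 0.39 on the log2 scale (SE; limma, adjusted p = 0.00256). GJB2, the connexin whose variants are a common cause of inherited deafness in people, had 11.05, 9.03 and 9.72 in CDd14, against 8.42, 7.82 and 7.88 in CDd7, and rose by 1.89 ± 0.41 (SE; limma, adjusted p = 0.0117). Both calls held in all 12 fits that left out 1 array, although that for GJB2 was lost with the CD arrays fitted alone (limma, adjusted p = 0.0509). At day 7 GJB5 was 1.63 ± 0.39 higher in CDd7 than in NPd7, just short of the threshold (SE; limma, adjusted p = 0.0503). Neither GJB5 nor GJB2 had a lower mean in CD than in NP at both days, as GJA1 did. The third, GJB6, passed the filter only through CD arrays, where it is high, so it cannot serve for this comparison.

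Of 25 tight junction scaffold and polarity genes, 12 have a probe set and 9 were measured. SYMPK, 1 of the 9, was nearly flat at 5.84 to 6.10 on all 12 arrays, and whether this is signal was not tested. In CDd14 minus CDd7, CGN (cingulin, which links the junction to myosin) rose by 0.70 ± 0.18, PRKCZ, an atypical protein kinase C of the polarity complex, rose by 0.40 ± 0.11, and the related kinase PRKCI fell by 0.88 ± 0.25 (SE; limma, adjusted p = 0.021, 0.0297 and 0.0315). At day 7 PRKCI was higher in CDd7, with 8.68, 8.99 and 9.01, against 7.80, 8.12 and 7.10 in NPd7 (limma, fold change 1.22, adjusted p = 0.0386). Each of these 4 calls was lost in some fits that left out 1 array. That for CGN was lost without CDd14 pool 1 or 3 or CDd7 pool 3, that for PRKCZ without CDd14 pool 2 or 3 or CDd7 pool 1 or 2, and that for PRKCI between days without any of the CDd14 pools or CDd7 pool 2 or 3 (limma, adjusted p = 0.0504 to 0.102). With the CD arrays alone those for CGN and PRKCZ were lost (limma, adjusted p = 0.0506 and 0.058), and with no filter both calls for PRKCI (0.0624 between days and 0.0674 at day 7). The day 7 call for PRKCI held in 5 of 12 such fits and was lost without any of the CDd14 pools, NPd14 pool 1, CDd7 pool 2, or NPd7 pool 1 or 3 (limma, adjusted p = 0.0546 to 0.156), and with the day 7 arrays alone (0.0965). The median of the 9 genes was 0.14 in CDd14 minus CDd7 and −0.09 in CDd7 minus NPd7.

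Among 5 measured adherens junction genes, CDH11, a cadherin of mesenchymal cells, passed at day 7. Its levels were 3.18, 3.27 and 3.31 in CDd7, all under the filter level, against 5.49, 5.27 and 6.34 in NPd7, a fold change of −2.45 ± 0.49 (SE; limma, adjusted p = 0.0368). CDH11 passed the filter only through NP arrays, where it is high, and its fold change is taken against values near the floor, so its size depends on that floor. The call was lost with no filter (limma, adjusted p = 0.0687), with the day 7 arrays alone (0.0744) and without any of the CDd14 pools, CDd7 pool 1 or 2, or NPd7 pool 1 or 3 (limma, adjusted p = 0.0543 to 0.154). Like GJA1 it was lower in CDd7 than in NPd7, but at day 14 its levels were 3.36, 3.39 and 3.32 in CDd14, against 3.21, 5.30 and 3.20 in NPd14, with only NPd14 pool 2 above the filter level. Among 5 measured desmosome genes, PKP4, a plakophilin, rose by 1.05 ± 0.22 and DSC2, a desmosomal cadherin, by 0.98 ± 0.23 in CDd14 minus CDd7 (SE; limma, adjusted p = 0.00933 and 0.016). The call for DSC2 was lost without CDd7 pool 2 and with the CD arrays alone (limma, adjusted p = 0.0647 and 0.0635). In CDd14 minus NPd14 and in NPd14 minus NPd7, none of the 28 measured genes of these 5 lists passed by limma, and 1 and 4 of them had an unadjusted p under 0.05.

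**Figure D4:**
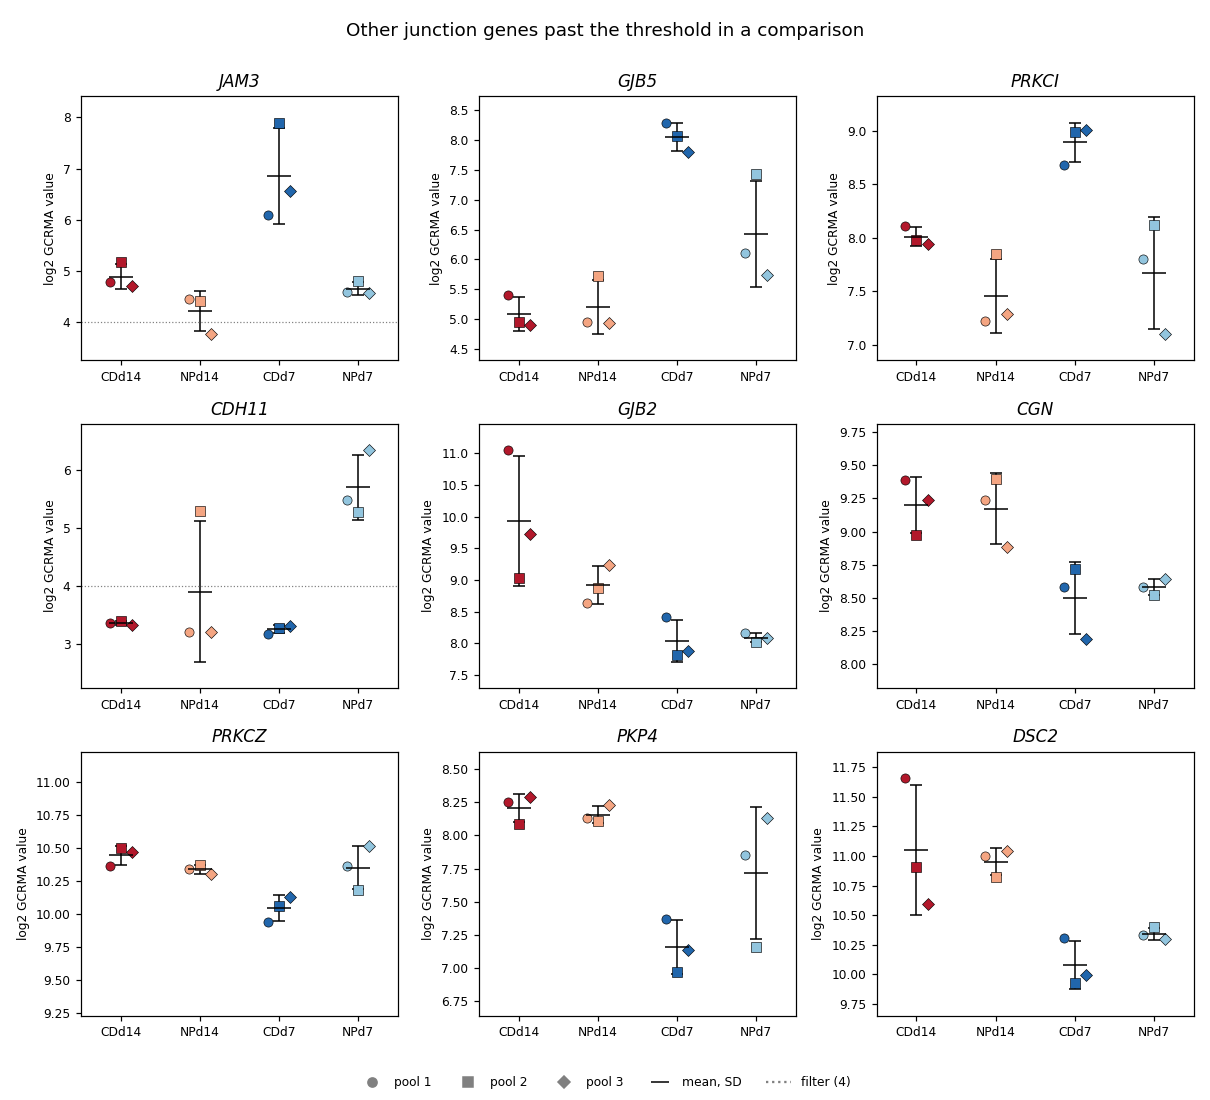
Level in each pool (log2 GCRMA value) of 9 other junction genes that passed the threshold in a comparison, with the group mean and SD (n = 3 pools) and the filter level of 4 as a dotted line where it falls in a panel. JAM3, GJB5 and PRKCI lie highest in CDd7, GJB2 and CGN lie higher at day 14, and CDH11 lies above the filter level in NPd7 and 1 NPd14 pool.

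The genes with the pattern most like each member were ranked by Pearson's r over the 12 arrays, which share the 4 groups. For CLDN5 they were SPHK1 (r = 0.975), AEBP2 (0.974), PPP6C (0.971) and DGKA (0.966). SPHK1, a kinase that makes sphingosine 1-phosphate, was likewise called in CDd14 minus CDd7 with a fall of 4.54 and at day 7 with 2.41 on the log2 scale (limma, adjusted p = 0.00194 and 0.0448). For GJA1 the closest were HOXA9 (0.879), S100A16 (0.863), FHL3 (0.863) and RILPL2 (0.855). HOXA9, a homeobox gene of reproductive tract development, had fold changes between outcomes close to those of GJA1, at −2.82 at day 14 and −3.14 at day 7, and passed at day 7 (limma, adjusted p = 0.291 and 0.0336). The closest genes to CLDN10 were CHST9 (0.892), APOD (0.877), RABAC1 (0.874) and METTL9 (0.86). For CLDN1 they were DPYSL2 (0.939), PRXL2B (0.938), XRCC3 (0.931) and SPRYD3 (0.928), and for CLDN4 CTSZ (0.982), MAP2K1 (0.977), ACSS1 (0.975) and RAPGEF2 (0.968).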

How the data were processed

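The log2 values were deposited by the authors and come from GCRMA, a method that corrects for background, normalizes the arrays and gives 1 value per probe set. This method and limma are listed per the submitters' processing notes, without versions. RNA of 3 pools per group was extracted and labelled with biotin, per the labels' protocols. The labels call the pools biological replicates but do not say which animals each holds, so p-values measure only the spread between these pools. For 1 CDd14 array, whose title carries a pair of unequal numbers, the stated replicate number was used.

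Of 24128 probe sets, 112 AFFX controls were left out, and 13449 passed the filter (56%). Of these, 8239 carry 1 symbol, 59 several and 5151 none that was listed. A gene is represented by its kept probe set with the highest mean, which gives 6781 genes. limma 3.58.1 in R 4.3.3 fitted 4 group means to the 12 arrays, which leaves 8 residual degrees of freedom (prior 2.13). P-values were adjusted by Benjamini-Hochberg across those 13449, at a two-sided threshold of 0.05. Precision is limited by the number of arrays.

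All members are named. From each junction list, up to 3 genes past the threshold per comparison with the smallest p are named, and likewise from cell type lists beside a member of that type. For 5 members, the 4 genes with the highest r are given. The members and lists were chosen with earlier results of these data known. Comparisons that share a group are not independent of each other.

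Pool numbers come from the sample titles. Deviations from the group means correlated by over 0.1 in every pair of pools for NPd14 and NPd7, and in 2 pairs of pools for each of the other 3 pairs of groups. The fit was tested on simulated data in which 200 probe sets were changed: at a fold of 4, 84% were recovered for CDd7 minus NPd7 and 86% for CDd14 minus NPd14, and at a fold of 2, 54.5% and 46%. Alternatives were another filter, no filter, quantile normalization, trended and robust moderation, the groups' own arrays, a pool block, averaged probe sets per gene, and leaving out each array. Genome coordinates were used for gene order only, and no sequences were used.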

Additional observations from a re-analysis of the deposited data

How the results depend on the processing

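The probe sets called in CDd7 minus NPd7 numbered 503, and were 161 with no filter, 3 with the day 7 arrays alone, 1455 with the pool number as a replicate block, and 0 to 1676 when 1 array was left out (0 without NPd7 pool 1 or NPd7 pool 3, with 2347 to 2656 at an unadjusted p under 0.05 by limma). The 2 members called there were 1 with no filter, 0 with the day 7 arrays alone, and 0 to 3 when 1 array was left out. In CDd14 minus NPd14, the 3 probe sets were 6 with no filter, 0 with quantile normalization, trended and robust moderation, the day 14 arrays alone, the replicate block or averaged probe sets per gene, and 0 to 12 when 1 array was left out, with 679 to 1155 at an unadjusted p under 0.05 by limma where 0 passed. Members called there were 0 to 1 over the same left-out arrays. In CDd14 minus CDd7, the 3231 probe sets were 1320 to 3732 and the 3 members 2 to 4 when 1 array was left out. In NPd14 minus NPd7, the 44 probe sets were 15 with the stricter filter, 17 with trended and robust moderation, 0 with the NP arrays alone (1884 at an unadjusted p under 0.05 by limma), 21 with the replicate block, and 1 to 172 when 1 array was left out, and members called were 0 to 1. For the difference of the day effects, the 0 probe sets were 1 with no filter and 0 to 53 when 1 array was left out, with 1105 to 2674 at an unadjusted p under 0.05 by limma where 0 passed. With the block, CLDN7 passed in CDd7 minus NPd7 (limma, adjusted p = 0.0271) and in CDd14 minus CDd7 (limma, adjusted p = 0.0151). Pools of the same number correlated at r of −0.03, 0.36 and 0.27 in the first comparison and 0.24, −0.07 and 0.23 in the second (pools 1, 2 and 3). Whether these pools are paired is not given by the labels. Other settings under which CLDN7 passed stand beside its values. Of 272 member fold changes under settings other than leaving out 1 array, 263 kept their direction and side of the threshold, and 1 turned its sign: CDH1 in CDd14 minus CDd7, at −0.02 with the mean of its probe sets. Leaving out 1 array was counted as turning the sign in 26 of 480 fits of members, none of them a call. These were, in CDd14 minus NPd14, CLDN3 (−0.29 to 0.12), CLDN4 (−0.05 to 1.46), CLDN10 (−0.22 to 0.66) and CDH1 (−0.04 to 0.16). In CDd14 minus CDd7 they were CLDN10 (−0.57 to 0.03) and GJA1 (−0.73 to 0.47), and in NPd14 minus NPd7 CLDN3 (−0.19 to 0.23) and CLDN7 (−0.33 to 0.15). For the difference of the day effects they were CLDN3 (−0.04 to 0.37), CLDN4 (−1.05 to 0.47) and GJA1 (−0.73 to 0.47). Not counted among the 26 was GJA1 in NPd14 minus NPd7, whose fold change of 0.00 ran between −0.21 and 0.35 in such fits. Where fewer arrays enter a fit, fewer degrees of freedom are left, and for the other changes the cause was not tested.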

Other observations

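GJB6, a connexin often found with GJB2 in epithelia, was uneven within groups. Its levels were 4.88, 2.55 and 2.56 in CDd14, 2.57, 2.51 and 2.56 in NPd14, 2.60, 5.79 and 5.68 in CDd7, and 2.58, 2.58 and 2.52 in NPd7. It was thus above the filter level of 4 in 3 pools, all of them CD, and near 2.5 in the other 9. GJB6 passed the filter only through these 3 CD pools, so its higher CD means follow from the filter. It passed the threshold in no comparison.

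The neighbours of CLDN5 on the RefSeq assembly ARS-UCD2.0, used for gene order only, are CDC45 and SEPTIN5, and neither passed the filter. CDC45, a DNA replication factor, lay between 2.21 and 2.38 on all arrays. SEPTIN5, a septin known from synapses, had 2.64, 2.32 and 2.32 in CDd14, against 3.29, 3.86 and 2.43 in CDd7. In NP it had 2.33, 2.31 and 2.32 in NPd14, against 2.34, 2.86 and 2.30 in NPd7.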
